A study of Mus musculus with 10 samples.

Results

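The contractile program of smooth muscle was followed here through 31 genes in the distal colon of mice with and without T-cell transfer (TCT) colitis. The genes were taken by name, with earlier results of these data known. Each was read from the probe set with the highest mean among those annotated to that gene alone. All 31 had such a probe set, out of 18193 genes measured on the arrays. They comprise 7 genes for the thick and thin filaments, 5 for proteins that switch or restrain contraction, 11 for anchors of the filaments, 5 for ion channels and calcium stores, and 3 others: the coactivator Myocd and the small muscle proteins Smpx and Hspb7.

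Every mouse was of the C57BL/6 strain and 4 to 5 months old, and carried the Rag1-/- genotype, under which no mature T or B cells form. At 10 weeks of age 4 mice received regulatory T cells (Tregs) and stayed free of inflammation (control), and 6 received naïve T cells and developed colitis (inflamed). The labels grade 3 of the inflamed colons as moderate and 3 as severe. The tissue ran from the rectum to the junction of proximal and distal colon, was taken 2 to 3 months after injection, and gave 1 array per mouse. No colon without transferred cells was included, so inflammation and the kind of T cell injected cannot be told apart.

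Smooth muscle forms the outer coat of the colon and a thin sheet under its mucosa, and it also lines vessels. When calcium enters the cell or leaves its stores, calmodulin activates myosin light chain kinase, the kinase phosphorylates the regulatory light chain, and myosin pulls on actin filaments that are tied to dense bodies and to plaques at the membrane. Most of the genes for these parts are switched on by serum response factor (Srf) with its coactivator myocardin. Srf binds a short DNA element called the CArG box.

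Values are log2 expression values made by the authors with RMA, so that a difference of 1 is a 2-fold change. Inflamed and control colons were compared with limma, a linear model that shares information on the spread across genes, and a gene was said to have fallen or risen when its p, adjusted over all 18193 genes (Benjamini-Hochberg), was under 0.05. Array medians were 5.36 to 5.40 and lower quartiles 3.82 to 3.92 over all probe sets, and arrays correlated at 0.9893 to 0.9958 within control or within inflamed. The labelled tissue carried its defining transcripts: Epcam, an epithelial adhesion protein, lay between 13.78 and 13.88 on the 10 arrays, and in control Acta2, Tagln and Myh11 lay at 13.15 ± 0.10, 12.98 ± 0.19 and 11.23 ± 0.21 (SD, n = 4). In whole tissue, fewer muscle cells, less RNA per muscle cell and a larger share of RNA from other cells cannot be told apart.

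As this element is known from genes of the program, the promoters of the members were searched for it. RefSeq (build GRCm38.p6) supplied the promoters of 25 of the 31 members, from 250 bases before to 50 bases after each gene start; Actg2, Myh11, Nexn, Myot, Tagln and Myocd had none there. A CArG box is a run of 10 bases that opens with C bases, closes with G bases and holds only A or T in its 6 middle positions, and since it is its own reverse complement in this form, both strands were read at once. Such a box stood in the promoter of 2 of the 25 members (8%), Myl9 and Ldb3, against 1.58% of the 14452 genes on the arrays with a promoter there. With up to 1 G or C allowed in the middle, a form that includes the exact boxes, it stood in 5 of 25 (20%), which adds Acta2, Synm and Cacna1c, against 10.7% of all genes. The stretches before the start of Myl9, Acta2, Synm and Ldb3 are shown 5′ to 3′, with the boxes in capitals. Cacna1c, with an inexact box before each of 2 annotated starts, is not shown. The stretches of Myl9 and Acta2 hold a pair of boxes each. The first Myl9 box and the Ldb3 box are exact, and the second Myl9 box, both Acta2 boxes and the Synm box hold 1 G or C in the middle.
Myl9, chr2:156775263-156775414, plus strand: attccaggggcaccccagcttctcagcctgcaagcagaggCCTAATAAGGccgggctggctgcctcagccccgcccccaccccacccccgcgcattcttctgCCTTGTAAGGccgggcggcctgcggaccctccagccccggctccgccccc
Acta2, chr19:34255374-34255497, minus strand: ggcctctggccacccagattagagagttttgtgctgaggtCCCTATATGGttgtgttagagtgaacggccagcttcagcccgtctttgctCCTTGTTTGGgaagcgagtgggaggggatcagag
Synm, chr7:67759932-67759992, minus strand: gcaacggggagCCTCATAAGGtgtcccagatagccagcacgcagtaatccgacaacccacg
Ldb3, chr14:34588682-34588756, minus strand: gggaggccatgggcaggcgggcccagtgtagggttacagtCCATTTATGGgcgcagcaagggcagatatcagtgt
The boxes of Myl9 began 161 and 99 bases before the gene start, and those of Acta2 began 84 and 34 bases before it. The Synm box began 239 bases before the start, and the Ldb3 box 35 bases before the nearer of that gene's annotated starts. A match describes the letters in this window only, and no binding was measured here.

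In inflamed colon, 29 of the 31 members were lower than in control, 1 (Myot) was higher and 1 (Ldb3) did not pass the test. Among all genes 21.2% were lower and 18.5% higher in the same comparison. The members were chosen with earlier results of these data known, so this contrast is not an independent test. The median difference of the members was -1.42 on the log2 scale, and that of all genes was 0.03. For 28 members every inflamed colon lay below every control colon, which held for 17.1% of all genes, and for Myot every inflamed colon lay above, which held for 14.6%. Of the 29 that fell, 24 fell at least 2-fold, which 4.6% of all genes did, and 7 fell at least 4-fold: Myh11, Myl9, Synpo2, Pgm5, Itga8, Pln and Smpx. Synpo2, the smallest of these 7 falls, ranked 135 among the falls of all genes. Both counts by size rest on the probe set used for each gene. Over the processing settings tried, the smallest differences were -1.56 for Myh11, -1.51 for Synpo2 and -1.26 for Itga8, all under 4-fold. Among the 500 largest falls of all genes 19 were members, and 4 were among the 100 largest. The median SD was 0.19 over the 4 control values of a member and 0.35 over its 6 inflamed values.

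**Figure D1:**
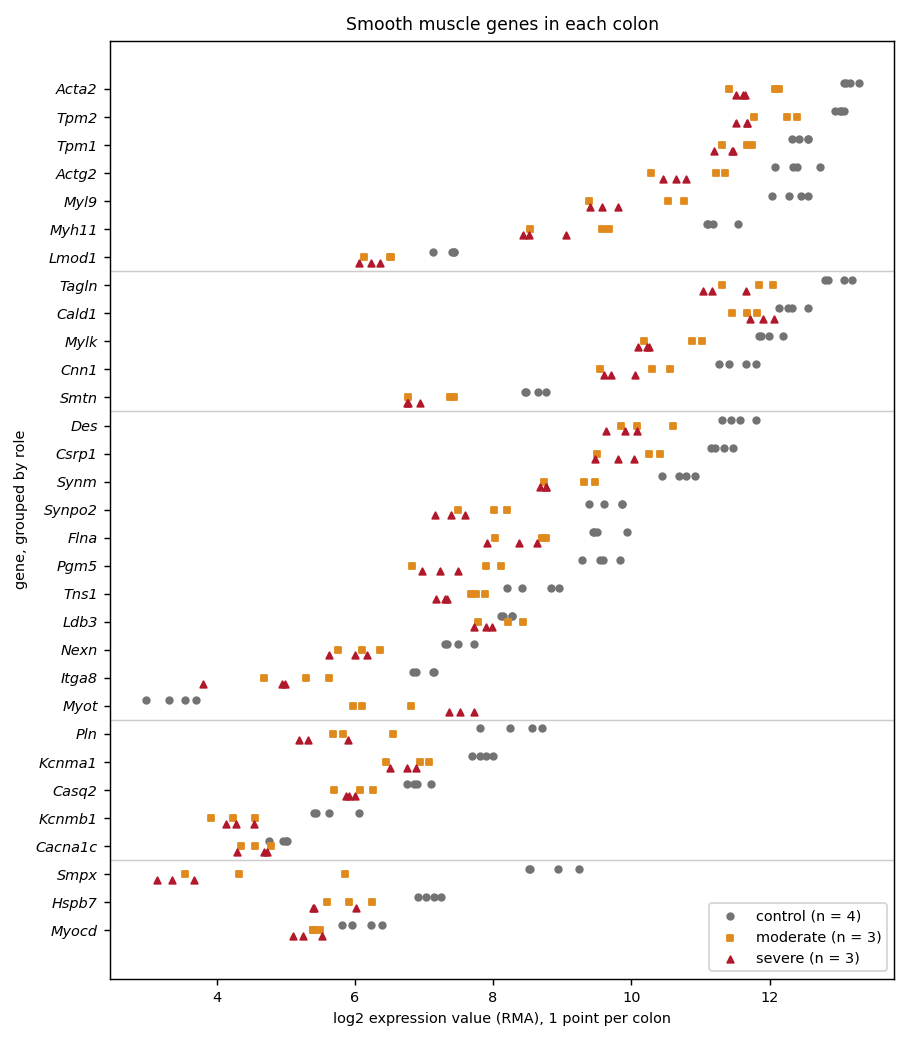
Log2 expression value of each of the 31 smooth muscle genes (rows, grouped by role) in each colon, 1 point per colon: 4 control (grey circles), 3 moderately inflamed (orange squares) and 3 severely inflamed (red triangles). The grey points lie to the right of all others in 28 rows and to the left in the row of Myot; they overlap with inflamed points in the rows of Ldb3 and Cacna1c.

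All 7 filament genes fell, by 0.98 to 2.42 on the log2 scale, in both the motor and its track. Myh11 encodes the myosin heavy chain by which smooth muscle is defined. It measured 11.54, 11.10, 11.18 and 11.11 in control, 9.57, 8.54 and 9.68 in moderate and 9.05, 8.44 and 8.52 in severe inflammation. The lowest control colon thus stood well above the highest inflamed one, and the second moderate colon lay among the severe ones. The difference between inflamed and control was -2.27 (standard error 0.25, adjusted p = 3.5e-05), a 4.81-fold fall, and the second, dimmer Myh11 probe set fell by 0.86. Myl9, whose promoter holds an exact CArG box and an inexact one, is the regulatory light chain that the kinase phosphorylates. Its values were 12.56, 12.04, 12.46 and 12.28 in control, 10.53, 9.39 and 10.76 in moderate and 9.81, 9.40 and 9.57 in severe colons. Again the groups did not overlap and the second moderate colon lay with the severe ones. Myl9 changed by -2.42 (standard error 0.27, adjusted p = 3.5e-05), or 5.36-fold.

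The differences of the thin filament genes lay between -0.98 and -1.59. Acta2, the alpha actin of smooth muscle, measured 13.29, 13.07, 13.17 and 13.10 in control, 12.14, 11.41 and 12.08 in moderate and 11.64, 11.52 and 11.61 in severe colons. The severe colons lay within 0.12 of each other, and 2 of the moderate ones lay above them. The difference was -1.42 (standard error 0.14, adjusted p = 1.9e-05). The probe set used for Acta2 carries the suffix by which the manufacturer marks probes that match more than 1 transcript; a second, unsuffixed probe set of the gene fell by 1.87. Actg2, the gamma actin typical of gut muscle, fell by 1.59 (standard error 0.21). The tropomyosins, which lie along the actin filament, fell by 0.98 (Tpm1, standard error 0.11) and 1.14 (Tpm2, standard error 0.16). Lmod1, a leiomodin that starts new actin filaments, fell by 1.05, from 7.35 ± 0.15 (SD, n = 4) to 6.30 ± 0.19 (SD, n = 6).

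Acta2, Tpm1 and Tpm2 each also had a dim, unsuffixed probe set that did not pass. That of Acta2, at 3.37 in control, differed by -0.20, and that of Tpm1, at 3.67, by 0.10. For Tpm2 it is the only unsuffixed one. The pair of bright Tpm2 probe sets, both with a suffix that marks several transcripts of the same gene, fell by 1.14 and 1.49. The unsuffixed Tpm2 probe set lay at 4.94 in control and 4.89 in inflamed colon, a difference of -0.04 (adjusted p = 0.773 when unsuffixed probe sets alone were used).

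All 5 regulators of contraction also fell. Mylk, the myosin light chain kinase, measured 12.20, 11.87, 11.99 and 11.85 in control, 11.02, 10.18 and 10.88 in moderate and 10.25, 10.10 and 10.23 in severe colons. No inflamed colon reached the control range. Its difference was -1.54 (standard error 0.18, adjusted p = 6e-05), and its other probe sets fell by 1.87 and 1.04. Cnn1 and Tagln encode calponin and transgelin, actin-binding proteins used as markers of mature smooth muscle. Cnn1 went from 11.54 ± 0.24 (SD, n = 4) to 9.96 ± 0.41 (SD, n = 6), and Tagln from 12.98 ± 0.19 to 11.51 ± 0.40. These are falls of 1.58 and 1.47. Smtn, which encodes the actin-binding smoothelin of contractile cells, fell by 1.58 (standard error 0.15, adjusted p = 1.5e-05).

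Cald1 encodes caldesmon, which restrains myosin on actin and has a muscle form and a form made by many other cells. It fell by 0.54 (standard error 0.12, adjusted p = 0.0031), the smallest change among the regulators. Its values were 12.55, 12.32, 12.26 and 12.13 in control, 11.82, 11.45 and 11.67 in moderate and 12.06, 11.72 and 11.91 in severe colons, so that the groups came within 0.07 of each other. A pair of less bright Cald1 probe sets fell by 1.02 and 1.37, while the dimmest pair differed by -0.02 and 0.17 and did not pass. Which form each probe set reads was not examined.

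Among the 11 anchor genes, 9 fell, by 1.08 to 2.14, and the other two were Myot and Ldb3. Des encodes desmin, the main intermediate filament protein of muscle. Its values were 11.81, 11.31, 11.57 and 11.44 in control, 10.60, 9.85 and 10.08 in moderate and 9.91, 9.64 and 10.08 in severe colons. The inflamed colons lay below every control, and the difference was -1.50 (standard error 0.16, adjusted p = 3.1e-05). A second, dim Des probe set, at 4.60 in control, differed by -0.15 and did not pass. Synm, whose product synemin is an intermediate filament protein that assembles with desmin, fell by 1.76 (standard error 0.17) on 1 probe set and by 1.87 on the other. Synpo2, an actin-binding protein of Z discs and dense bodies, differed by -2.03 (standard error 0.19, adjusted p = 1.3e-05), and its 3 other probe sets fell by 0.71 to 1.75.

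The anchors at the membrane and in the actin cytoskeleton fell as well. Pgm5, a relative of phosphoglucomutase found at muscle adhesion sites, went from 9.57 ± 0.22 (SD, n = 4) to 7.42 ± 0.51 (SD, n = 6), a fall of 2.14. Itga8 encodes the integrin alpha 8 subunit, which smooth muscle and fibroblasts make. It measured 7.15, 7.13, 6.88 and 6.84 in control, 5.29, 4.68 and 5.63 in moderate and 4.95, 4.99 and 3.80 in severe colons. The third severe colon was the lowest by 0.88, and all inflamed colons were below control, with a difference of -2.11 (standard error 0.28, adjusted p = 0.000106). At 3.80 the third severe colon lay below the lower quartile of every array, so that the size of the fall is uncertain there. A second, dim Itga8 probe set, at 3.45 in control, fell by 0.41. Nexn (nexilin, an actin-binding protein) fell by 1.46, Csrp1 (a LIM protein of the actin cytoskeleton) by 1.38, Flna (filamin A, a broadly expressed actin crosslinker) by 1.19 and Tns1 (tensin, which links actin to integrins) by 1.08.

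Myot rose. Its product, myotilin, is a Z disc protein of striated muscle that binds filamins and actinin. The control colons measured 3.55, 2.98, 3.31 and 3.70, below the lower quartile of every array. The moderate colons measured 5.97, 6.82 and 6.11, and the severe ones 7.72, 7.52 and 7.36. The 3 groups did not overlap, and all 6 inflamed colons were above the median of the probe sets. The difference was 3.53 (standard error 0.34, adjusted p = 1.5e-05), but from a level as dim as that of the control colons the size of a fold change is uncertain. Myot is read by a single probe set, so no other probe set bears on its rise.

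Ldb3, the other member with an exact CArG box before its start, did not pass the test. It encodes a PDZ and LIM protein of the Z disc that binds actinin. The control colons measured 8.28, 8.27, 8.15 and 8.12, the moderate ones 8.21, 7.78 and 8.43, and the severe ones 7.72, 7.90 and 7.98. The severe colons all lay below control, whereas the moderate ones lay on both sides of it. The difference between inflamed and control was -0.20 (standard error 0.13, adjusted p = 0.24), and -0.29 (adjusted p = 0.0421) without moderate replicate 3. Its other probe sets differed by 0.11 and -0.20 and did not pass either.

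All 5 genes for channels and calcium stores fell, by unequal amounts. Pln encodes phospholamban, the inhibitor of the calcium pump of the sarcoplasmic reticulum. It measured 8.71, 7.81, 8.57 and 8.24 in control, 5.83, 5.68 and 6.55 in moderate and 5.20, 5.33 and 5.90 in severe colons. The inflamed colons lay at least 1.27 below the lowest control. The difference was -2.59 (standard error 0.25, adjusted p = 1.5e-05), a 6.02-fold fall, and the other probe sets fell by 1.74 and 2.42. Casq2, the calsequestrin that stores calcium inside the reticulum, fell by 0.93 (standard error 0.11).

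Kcnma1 and Kcnmb1 encode the pore and the muscle beta subunit of the large-conductance potassium channel that relaxes the cell. Kcnma1 went from 7.85 ± 0.13 (SD, n = 4) to 6.77 ± 0.25 (SD, n = 6) and fell by 1.08. Kcnmb1 went from 5.63 ± 0.30 to 4.28 ± 0.24 and fell by 1.36. Its inflamed values, 3.92 to 4.56, lay below the median of every array. One Kcnma1 probe set, with a mean of 6.30, differed by -0.21 and did not pass (adjusted p = 0.155 over probe sets), while the 3 others fell by 0.62 to 0.96.

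Cacna1c encodes the pore of the L-type calcium channel through which calcium enters. It was dim and changed least among the genes that fell. The control colons measured 4.96, 5.01, 5.02 and 4.76, the moderate ones 4.79, 4.35 and 4.55, and the severe ones 4.73, 4.69 and 4.29. The lowest control lay within the inflamed range. The difference was -0.37 (standard error 0.11, adjusted p = 0.0182), and the call was lost without control replicate 2 (adjusted p = 0.0526) or control replicate 3 (adjusted p = 0.0551). A second Cacna1c probe set fell by 0.45.

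Myocd, the coactivator that switches the program on, fell by 0.74 (standard error 0.12, adjusted p = 0.000487). It measured 6.40, 6.24, 5.96 and 5.82 in control, 5.40, 5.39 and 5.50 in moderate and 5.25, 5.10 and 5.53 in severe colons. The groups were 0.29 apart at their closest, and a second, dimmer Myocd probe set differed by 0.04 and did not pass. Hspb7, a small heat shock protein of heart and muscle, fell by 1.32 (standard error 0.17).

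Smpx, a small protein of muscle cells that sits at the membrane cytoskeleton, had the largest difference of the 31. Its control colons measured 8.52, 9.25, 8.94 and 8.54, its moderate ones 4.33, 3.55 and 5.86, and its severe ones 3.68, 3.36 and 3.14. The severe colons and the second moderate one lay below the lower quartile of every array, so that the size of the fall is uncertain there. The third moderate colon, at 5.86, was the highest of the inflamed and still 2.66 below the lowest control. The fitted difference was -4.82 (standard error 0.44, adjusted p = 1.2e-05), a fall larger than that of all but 2 genes on the arrays.

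The further probe sets of the members gave a check that does not depend on the choice of 1 per gene. The 31 genes have 68 probe sets in all, and 19 of them have more than 1. Of the 37 probe sets not used above, 27 fell and 10 did not pass, where 19.4% of all 34945 probe sets fell. Of the 22 that were above the array median in control, 20 fell, and the exceptions were the second Ldb3 and the second Kcnma1 probe sets. The other 8 that did not pass lay below that median. Choosing probe sets by their control values favours falls, and the share of all probe sets above that median that fell was not counted.

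Both grades of inflammation showed the fall. Against control, 28 members were lower and 1 higher in severe inflammation, where 18.9% of all genes were lower and 16.1% higher, and 28 were lower and 1 higher in moderate inflammation, where 16.7% were lower and 13.2% higher. The 2 that did not pass were Ldb3 and Cacna1c in each case. In severe colons Ldb3 passed without moderate replicate 2 (adjusted p = 0.0199) or moderate replicate 3 (0.0455), and Cacna1c without any 1 of control replicate 4, severe replicate 1 and moderate replicates 1 and 2 (0.0431 to 0.0490). Both also passed in severe colons when control and severe arrays alone were fitted (Ldb3 0.0183, Cacna1c 0.0472), and Cacna1c when quantile normalization was repeated (0.0445). In moderate colons Cacna1c passed without severe replicate 3 (0.0367) or moderate replicate 1 (0.0315), when only control and moderate arrays were fitted (0.0444), when quantile normalization was repeated (0.0376), as a mean over its probe sets (-0.48, adjusted p = 0.0162) and on unsuffixed ones (-0.58, adjusted p = 0.0101), so its call there depends on the processing. The members' median difference was -1.53 in severe and -1.28 in moderate inflammation. These comparisons share the 4 control colons. Smpx differed by -5.42 in severe and -4.23 in moderate colons, Myh11 by -2.56 and -1.97, and Myot by 4.15 and 2.91. Cald1 ran the other way, at -0.42 in severe (adjusted p = 0.0248) and -0.67 in moderate colons, and its call in severe colons was lost without control replicate 1 (adjusted p = 0.0632), control replicate 2 (0.0511), severe replicate 2 (0.0997) or severe replicate 3 (0.0632).

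**Figure D2:**
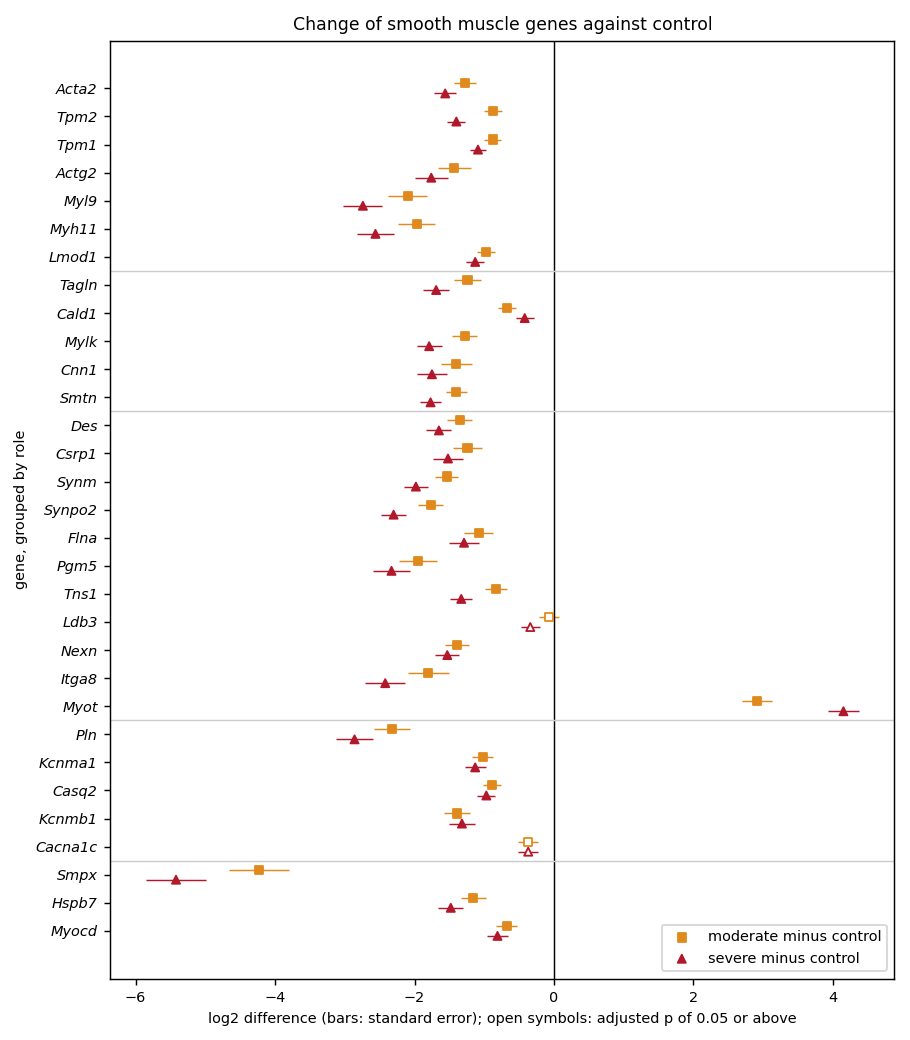
Log2 difference from control of each smooth muscle gene (rows, grouped by role) in moderate (orange squares, n = 3) and severe colitis (red triangles, n = 3), with bars for the standard error; filled symbols passed at an adjusted p under 0.05. The severe symbol lies to the left of the moderate one for 27 of 31 genes, where severe lay below moderate for 9347 of all 18193 genes. Open symbols stand only at Ldb3 and Cacna1c.

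Set against each other, severe and moderate colons did not differ in any member at an adjusted p under 0.05 (limma); 0% of all genes did, in either direction. The difference of severe from moderate was negative for 27 of the 31 members, with a median of -0.32 and standard errors of 0.132 to 0.458. Among all genes it was negative for 9347 of 18193, with a median of 0.0. The members were read in the same colons, so their signs are not independent of each other. At an unadjusted p under 0.05 there were 8 members, Mylk, Smtn, Synm, Synpo2, Tns1, Tpm2 and Smpx lower and Myot higher in severe colons, where 2.89% of all genes were lower and 2.18% higher. The smallest adjusted p was that of Myot (difference 1.23, standard error 0.23, adjusted p = 0.36). Without moderate replicate 2, Myot (1.49, adjusted p = 0.0345) and Tpm2 (-0.70, adjusted p = 0.0345) passed. With 3 colons on each side, members that differ by less than these errors allow could not be told apart.

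The spread among inflamed colons did not follow the grades alone. The mean log2 value over the 29 members that fell was 9.86, 9.58, 9.71 and 9.52 in the 4 control colons. It was 8.04, 7.82 and 7.94 in the severe colons and 8.44, 7.86 and 8.52 in the moderate ones. The second moderate colon therefore lay within the severe range. It held the lowest inflamed value for 8 of these members and the second severe colon for 12, while moderate replicates 1 and 3 were among the 2 highest for 24 and 25. Myot was the exception in another way, with the second moderate colon the highest of its grade but below all severe ones.

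A leukocyte transcript was read in the same colons. Ptprc, which encodes the pan-leukocyte marker CD45, measured 11.02, 10.06 and 10.57 in the severe and 10.99, 10.02 and 10.06 in the moderate colons. The first moderate colon, among the highest for muscle genes, also had high Ptprc. The second moderate colon, among the lowest, had the lowest Ptprc of the 6, close to severe replicate 2 and moderate replicate 3 (10.06 each). The part of leukocyte RNA in the fall was not tested.

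**Figure D3:**
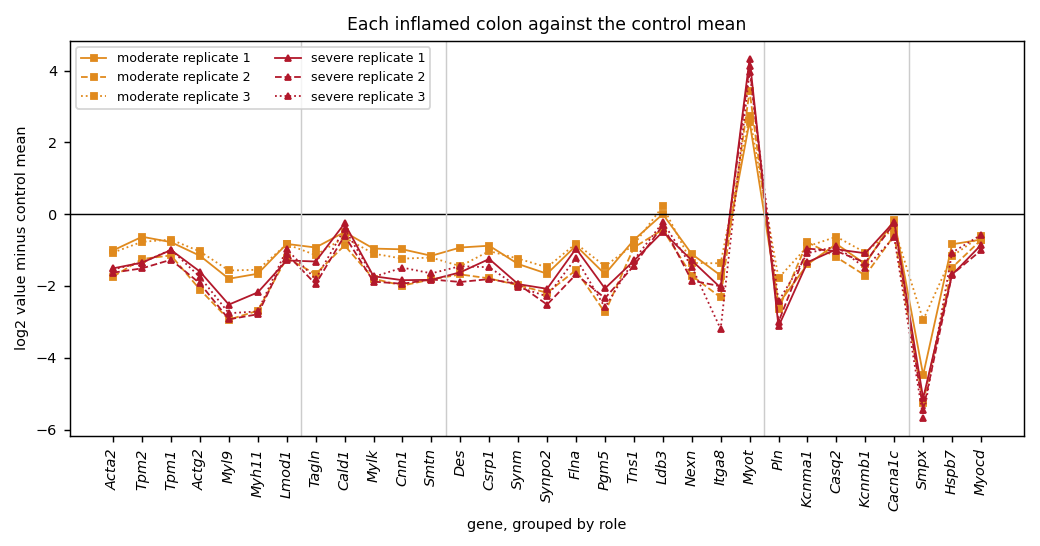
Log2 value of each smooth muscle gene (horizontal axis, grouped by role) in each inflamed colon minus the mean of the 4 control colons; orange lines are moderate and red lines severe colons, 1 line per colon. Moderate replicates 1 and 3 run highest over most genes, moderate replicate 2 runs with the severe colons, and Myot stands above 0 in all 6.

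Whether the members fell to the same degree was asked by subtracting Myh11 from each gene on the same array and fitting the differences again. Relative to Myh11, 23 of the other 30 members were higher in inflamed colon, 1 (Smpx, -2.56) was lower and 6 did not pass. Since Myh11 fell 4.81-fold, 98.5% of all genes were higher and 0.22% lower on this scale. The 6 that did not pass were Myl9 (-0.16), Pln (-0.32), Synm (0.51), Synpo2 (0.23), Pgm5 (0.13) and Itga8 (0.15). The scatter of Myh11 enters each of these differences, and the fit gave all of them the same standard error (0.32). The p-values of this fit are therefore not reliable. They can be too small, or too large for members that vary with Myh11 from array to array. The count also depends on the reference: against Des, 8 members were higher and 7 lower, where 95.8% of all genes were higher and 0.825% lower, and against Acta2, 7 were higher and 7 lower, where 95.5% were higher and 1.07% lower. Against Des, Pln (-1.09) and Myl9 (-0.92) had fallen further than the reference.

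The nonmuscle relatives of the contractile proteins, made by most cells, were read beside the members they resemble. Of 18 measured, 3 fell, 5 rose and 10 did not pass, with a median difference of 0.06. Among all genes 21.2% were lower and 18.5% higher, with a median of 0.03, so that these counts lie near the background. Beside Myh11 at -2.27, the nonmuscle heavy chain Myh9 differed by 0.09 (adjusted p = 0.296), but rose by 0.20 as a mean over its probe sets (adjusted p = 0.0113) and by 0.20 on unsuffixed ones (adjusted p = 0.0467), and Myh10 fell by 0.85. Beside the muscle actins, the cytoplasmic actins Actb and Actg1 rose by 0.26 and 0.22. Beside Tpm1 and Tpm2, Tpm3 rose by 0.69 and Tpm4 differed by 0.25 (adjusted p = 0.0526; 0.0300 without severe replicate 2 and 0.0193 without moderate replicate 2). Beside Cnn1 at -1.58, Cnn2 rose by 1.30 (standard error 0.13, adjusted p = 2e-05), from 8.25 ± 0.12 (SD, n = 4) to 9.54 ± 0.27 (SD, n = 6), and Cnn3 differed by 0.03 (adjusted p = 0.882; -0.18 as a mean over its probe sets). Tagln2 differed by -0.03 (adjusted p = 0.836) beside Tagln at -1.47. Csrp2, a LIM protein related to Csrp1 that is made in vascular muscle, fell by 1.32 like the member it resembles.

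**Figure D4:**
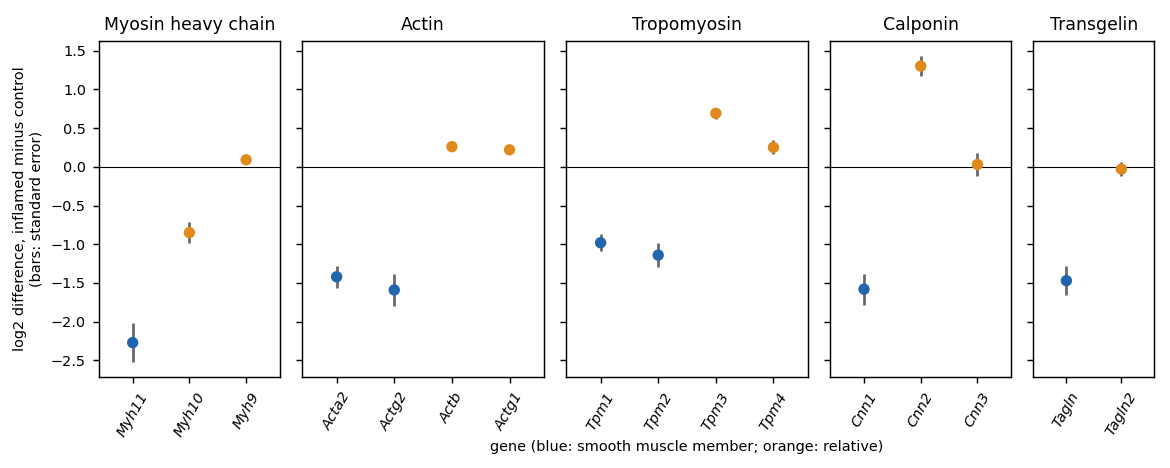
Log2 difference of inflamed (n = 6) from control colons (n = 4) for smooth muscle members (blue) and nonmuscle relatives (orange) of the same protein family, with bars for the standard error. Each blue point lies near or below -1; the orange points drawn, which leave out the other relatives, Csrp2 at -1.32 among them, lie between -0.85 (Myh10) and 1.30 (Cnn2).

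Other genes of the contractile pathway are given here by their counts, which stand beside 21.2% of all genes lower and 18.5% higher, as do those of the cell type markers further on. Of 14 genes for Srf, its cofactors and muscle regulatory factors, 8 fell and 1 rose, with a median difference of -0.27. Mef2c, a transcription factor of muscle, fell by 1.45 (standard error 0.14, adjusted p = 1.3e-05). Srf itself fell by 0.47 (adjusted p = 0.000193) on the probe set used, but differed by 0.00 as a mean over its probe sets and by 0.46 upward on the unsuffixed one, so no direction can be given for it. Barx1, a homeobox factor of stomach mesenchyme, rose by 0.21 (adjusted p = 0.0384) and lost that call without any 1 of control replicates 1 to 3, severe replicates 2 and 3 or moderate replicates 1 and 2 (adjusted p 0.0533 to 0.125). Barx1 also lost it with quantile normalization repeated (0.0509), with a variance trend (0.0530) and in the 3-group model (0.0508).

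Of 12 receptors of gut muscle 7 fell and 5 did not pass (median -0.46). Among them the serotonin receptor Htr4 fell by 1.84, and the prostaglandin receptor Ptger3 by 1.46 on the probe set used, but differed by 0.06 on its unsuffixed one.

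Of 18 other genes for calcium and potassium handling 11 fell and 2 rose (median -0.64). Mrvi1, the substrate of cGMP kinase that restrains calcium release, fell by 1.31. Itpr2, an inositol trisphosphate receptor, fell by 1.66, with a difference of 0.08 on unsuffixed probe sets. Atp2a2, the calcium pump that phospholamban inhibits and that most cells make, rose by 0.79 (standard error 0.06, adjusted p = 4e-06) while Pln fell by 2.59. Of 28 genes for the dystrophin complex, integrins and focal adhesions 17 fell and 5 rose (median -0.45). The muscle LIM protein Pdlim3 fell by 2.19 and Fhl1, another LIM protein, fell by 1.89, and Fhl2 and Itgb1, the beta 1 integrin of most cells, rose by 0.54 and 0.41.

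Transcripts of other cells of the colon wall moved too, and their part in the fall of the members was not tested. On the linear scale the summed signal of the members was 62800 to 78500 in control and 21600 to 35100 in inflamed colons. For 11 leukocyte and T cell genes, all of which rose, the sum went from 2080 to 2260 in control to 8160 to 21200 in inflamed colons; Cd3g rose by 4.36 and Itgb2 by 3.55. For 10 epithelial genes it went from 76800 to 81300 to 82000 to 90000, where 8 did not pass and 2 rose, Cldn7 by 0.27 and Krt19 by 0.20 (adjusted p = 0.0414). Krt19 lost that call without any 1 of control replicates 1, 2 and 4, severe replicates 2 and 3 or moderate replicates 1 and 3 (adjusted p 0.0526 to 0.133). The call was also lost with the replicate block (0.0556) and in the 3-group model (0.0532).

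Markers of cells that lie within or beside the muscle coat fell in part. Of 5 genes of interstitial cells of Cajal, the pacemakers of the gut, 3 fell: Kit by 1.63, Thbs4 by 1.20 and Ano1 by 0.97. Gja1 (0.15) and Prkcq (0.06) did not pass. The summed signal of the 5 went from 6730 to 8200 in control to 3200 to 4550 in inflamed colons. Thbs4 and Ano1, at 11.55 and 11.53 in control, make up most of these sums, where the next brightest, Gja1, lay at 9.85. Of 10 genes of enteric neurons and glia 5 fell: Snap25 by 2.06, Uchl1 by 1.54, Vip by 1.30, Elavl4 by 1.16 and S100b by 0.58 (sums 1590 to 2130 against 782 to 1310). Gfap (0.21), Ret (0.01), Chat (-0.05), Sox10 (-0.08) and Nos1 (-0.22) did not pass. Of 9 fibroblast genes 5 fell: Dpt by 1.79, Lum by 1.77, Dcn by 1.12, Fbln1 by 0.78 and Col3a1 by 0.66 (adjusted p = 0.0325), with sums of 13200 to 16700 against 5570 to 14800. The difference was negative for 7 of the 9, while Col1a1 (0.41) and Pdgfra (0.11) ran upward without passing. Of 6 endothelial genes 4 fell: Tek by 1.67, Cldn5 by 1.34, Pecam1 by 0.56 and Kdr by 0.24 (adjusted p = 0.0287), with sums of 483 to 604 against 323 to 430. The call of Col3a1 was lost without any 1 of control replicates 1 to 3, severe replicates 2 and 3 or moderate replicates 1 and 2 (adjusted p 0.0525 to 0.0779), and that of Kdr without any 1 of control replicates 1 and 3 or severe replicates 2 and 3 (0.0510 to 0.0964). Col3a1 also lost its call as a mean over probe sets (0.0886), on unsuffixed ones (0.179) and under the methods' t-test after Benjamini-Hochberg (0.0786). Kdr lost its call when quantile normalization was repeated (0.0881).

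Of 6 pericyte genes, cells that share Acta2, Tagln and Myh11 with muscle, only Rgs5 passed, with a fall of 1.34 (sums 2660 to 3970 against 1410 to 1740). Rgs5 makes up most of these sums, at 11.48 in control, where the next brightest, Pdgfrb, lay at 8.08. Of 8 genes of the mesothelium and fat only Fabp4 passed, with a fall of 0.79 (sums 327 to 607 against 251 to 433). Fabp4 differed by -0.01 on unsuffixed probe sets and lost its call without control replicate 2 (adjusted p = 0.0599) or control replicate 3 (0.0790). Under the methods' t-test after Benjamini-Hochberg it did not pass either (0.0607). Of 30 genes of skeletal and cardiac muscle 5 fell, 6 rose and 19 did not pass, with a median difference of 0.11. These counts lie near the shares of all genes that fell and rose. The sarcomeric heavy chains Myh1, Myh2, Myh4, Myh6 and Myh7 lay at 3.18 to 4.22 in control and did not pass the test, and 23 of the 30 genes lay below the array median in control.

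**Figure D5:**
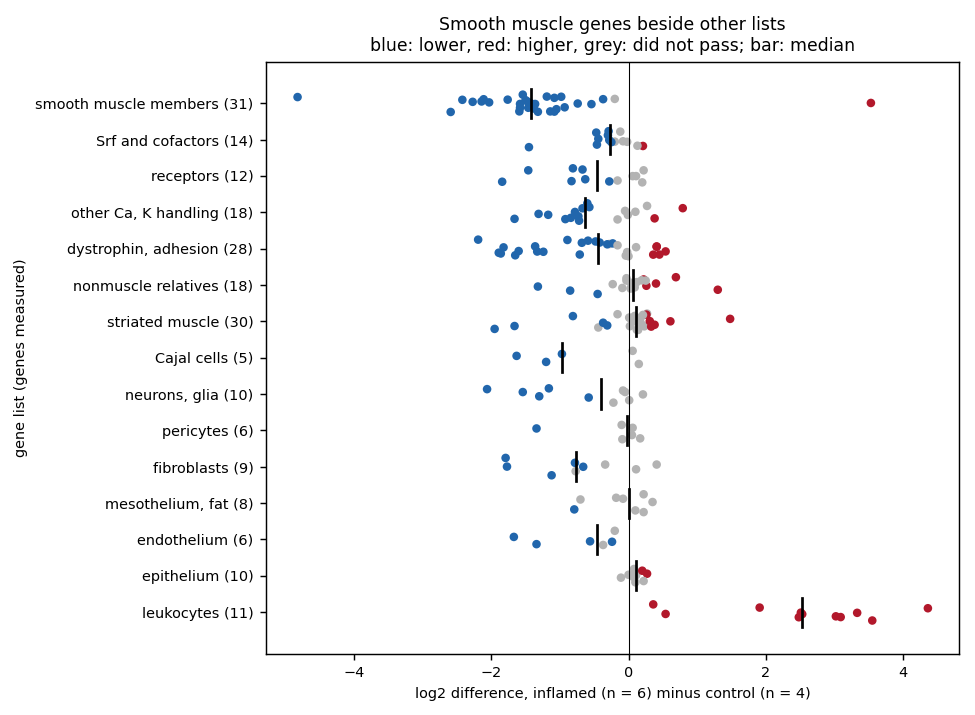
Log2 difference of inflamed (n = 6) from control (n = 4) colons for the 31 smooth muscle members (top row) and for 14 other gene lists (number of genes measured in brackets), 1 point per gene; blue fell, red rose, grey did not pass, and the black bar is the list's median. The members' median is -1.42, and those of the pathway lists lie between -0.64 and -0.27.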

How the data were processed

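Distal colon RNA of 10 mice (4 control, 3 moderate, 3 severe) was hybridised to Affymetrix mouse arrays, 1 per mouse. The deposited log2 values were made by the authors, per the submitters' processing notes, with Affymetrix Expression Console and RMA, that is, corrected for background, quantile normalized and summarised over the probes of a set; versions are not given in the sources used here. RNA was extracted with Trizol by the labels and with a Qiagen kit by the methods.

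Of 45101 probe sets, 34945 are annotated to 1 gene, 932 to several, 9160 to none, and 64 are controls; the first kind was kept, and each of 18193 genes took its probe set with the highest mean (9010 genes have several). Models were fitted with limma 3.58.1 (lmFit and eBayes, two-sided) in R 4.3.3: inflamed against control in 2 groups, and severe, moderate and control in 3 groups sharing 1 estimate of the spread. Adjustment (Benjamini-Hochberg) ran over all genes, with a threshold of 0.05. Models were tested on simulated data. Linear sums add 2 to the power of each log2 value. The number of arrays limits the precision. Neither detection calls nor dates of scanning entered, which leaves background levels and scan batches unexamined. Replicates are different mice, and replicate numbers do not pair them.

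The members and gene lists were chosen with earlier results of these data known; 1 further list of pathway genes is not reported here. All 31 members are named; of each other list the 2 largest falls and 2 largest rises that passed without overlap of groups, every called gene of a list with 5 or fewer calls, and the nonmuscle relatives of members. Alternatives were the mean over probe sets, unsuffixed probe sets only, dim genes left out, arrays centred on the median, quantile normalization repeated, a variance trend, the methods' t-test, a replicate block, other model samples, other references for relative values, and each array left out in turn. Python 3.11.15 with matplotlib 3.10.9 drew the figures.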

Additional observations from a re-analysis of the deposited data

Results flagged for a closer look

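Over 62 sets of values, the control and the inflamed values of each of the 31 members, 1 colon stood apart from the rest of its group in 2, where chance alone gives about 1 in 20. For Lmod1, the actin filament starter, the fourth control colon measured 7.13 and the other 3 lay between 7.41 and 7.44, so that the gap took up 0.918 of the group's range, past the critical value of Dixon's test for 4 values. For Flna, filamin A, the first control colon measured 9.94 and the other 3 lay between 9.45 and 9.51 (0.884 of the range). Both colons lay above every inflamed colon for these genes.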

How the results depend on the processing

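The count of members that fell in inflamed colon was 29 in the mean over probe sets, both rescalings, the variance trend, the 3-group model, the replicate block and the methods' t-test after Benjamini-Hochberg, and 28 to 30 with single arrays left out. It was 24 of 27 with unsuffixed probe sets only (Tpm2 and Ldb3 did not pass, Myot rose) and 21 of 22 with dim genes left out. Myot is among the dim, so the count of members higher was then 0 in inflamed, severe and moderate colons alike. Against control, leaving out single arrays gave 27 to 30 lower in severe and 28 to 29 in moderate colons. Samples of the same replicate number are different mice, and an array correlated best with its own number in 6 of 18 comparisons with another group. With the replicate block the counts were 29 lower and 1 higher in inflamed, 28 and 1 in severe and in moderate colons, and 0 between severe and moderate.

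In moderate colons Myocd stood at -0.30 (adjusted p = 0.0502) with the mean over probe sets, and under the methods' t-test after Benjamini-Hochberg Tns1 in moderate (0.0534) and Cald1 in severe colons (0.0720) did not pass, while Ldb3 in severe colons did (0.0350). Between severe and moderate colons 1 member was lower (Tns1) and 1 higher (Myot) under the methods' t-test without adjustment, 0 after it, and leaving out single arrays gave 0 to 1 in each direction; over all genes that test called 338 lower and 305 higher, and leaving out moderate replicate 2 gave 6 and 14, against 0 and 0. Relative to Myh11, the members lower were 4 with the mean over probe sets, 0 with dim genes left out, 7 against Des and 7 against Acta2, and those higher were 14 with the mean over probe sets, 8 against Des and 7 against Acta2; all genes lower numbered 40 against Myh11, and 100, 150 and 195 with the mean over probe sets, Des and Acta2. Single genes changed sign as follows. With unsuffixed probe sets only, Srf stood at 0.46, Ptger3 at 0.06, Itpr2 at 0.08, Cnn3 at -0.32, Tnnt2 at 0.26 and Tpm2, severe against moderate, at 0.04. With the mean over probe sets Cnn3 stood at -0.18 and Ldb3, moderate against control, at 0.00. With single arrays left out Cnn3 ranged from -0.06 to 0.10, Tagln2 from -0.12 to 0.03 and Ldb3, moderate against control, from -0.21 to 0.12. The cause of these changes was not tested. Signal over background was not examined for dim genes, which limits Myot, Smpx, Cacna1c, Kcnmb1 and Itga8 most.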

Other observations

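Of 30 genes of skeletal and cardiac muscle, 5 fell and 6 rose, where 21.2% of all genes were lower and 18.5% higher. These counts lie near the background, and the genes below are single cases from that list. Tnni1, the troponin I of slow skeletal muscle, measured 10.08, 11.38, 11.15 and 10.87 in control, 8.91, 9.83 and 9.68 in moderate and 8.01, 9.61 and 7.45 in severe colons. All inflamed colons lay below control, with a difference of -1.95 (standard error 0.46, adjusted p = 0.00534), and the inflamed colons spread over more than 2 on the log2 scale. Tnnt2, the cardiac troponin T, fell by 1.66 (adjusted p = 0.00117) on the probe set used and differed by 0.26 on its unsuffixed ones. Actn2, the actinin of Z discs to which myotilin and the product of Ldb3 bind, measured 4.44, 4.93, 4.71 and 4.91 in control, 6.73, 5.98 and 5.78 in moderate and 6.72, 5.92 and 6.27 in severe colons. It rose by 1.48 (standard error 0.20, adjusted p = 0.000123), with no overlap between control and inflamed colons. The control colons lay below the median of every array, and Actn2 is read by a single probe set, so no other bears on its rise. Tnni3, the cardiac troponin I, rose by 0.61 from a dim 3.89 ± 0.07 (SD, n = 4).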
